A study of Mus musculus with 9 samples.

Results

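The sirtuins are a mouse gene family of 7 names, Sirt1 to Sirt7, and they were followed here through cultured tumour cells of 3 origins. Members were taken by name from a table of read counts per gene. Of the 7 names 6 were among its 11046 genes (Sirt1, Sirt2, Sirt3, Sirt5, Sirt6 and Sirt7), and Sirt4 is not analysed here. All 6 passed the filter on low counts that left 11037 genes for testing. The family was chosen by the Sirt5 counts in these libraries, so Sirt5 levels and differences are given as a description, with no test.

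The study, part of work on brain metastases and their electrophysiological effects, profiled the lines 482N1, B16F10-BrM and E0771-BrM. By their labels these are a lung NSCLC (non-small-cell lung cancer), a melanoma with mutant BRAF and a triple negative breast cancer. BrM marks a brain-metastatic derivative. Cells of all 3 lines carry the genotype label WT, were untreated and were grown in culture, with 3 poly(A) RNA-seq libraries per line lettered A, B and C. DMEM was the medium of 482N1 and B16F10-BrM. RPMI 1640 with added HEPES was used for E0771-BrM alone, whose line and medium cannot be told apart. The labels do not say that the libraries of a line came from separate cultures, so p-values measure the spread between these libraries, which may be technical. Each tumour type is represented by 1 line.

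Sirtuins are enzymes that use NAD+ to take acetyl or longer acyl groups off lysines of other proteins. SIRT1, SIRT6 and SIRT7 work mainly in the nucleus, SIRT2 mainly in the cytosol, and SIRT3, SIRT4 and SIRT5 in mitochondria. SIRT5 has little deacetylase activity and instead removes the acidic succinyl, malonyl and glutaryl groups that form from the matching CoA thioesters of mitochondrial metabolism.

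Total counts ran from 7332390 to 9293348 per library, and the ribosomal RNA gene Rn18s took 11.6% to 13.1% of counts in 482N1 against 6.40% to 8.36% elsewhere. Levels are CPM, the counts of a gene scaled to the library's total, after normalisation by trimmed mean of M values (TMM), given as mean ± SD with n = 3. Of 10 melanocyte markers listed, the 5 in the table (Dct, Pmel, Tyrp1, Gpnmb and Mitf) summed to 24629 to 25484 CPM in B16F10-BrM. The 4 of 8 epithelial and lung markers summed to 7351 to 7970 CPM in 482N1, and the 3 of 7 mammary markers to 47.9 to 64.2 CPM in E0771-BrM against 91.7 to 110 CPM in 482N1, so that these mammary markers were not highest in the breast line. The lung marker Nkx2-1 and the epithelial markers Epcam and Cdh1 were not analysed here. Immune markers (2 of 6) summed to 21.9 to 34.2 CPM in 482N1 and E0771-BrM and at most 0.625 CPM in B16F10-BrM. Fibroblast and endothelial markers (3 of 8) reached 101 CPM in 482N1, nearly all of it Flt1 with 93.6 ± 6.97 CPM. Col1a2 and Pdgfrb were at 0.040 and 0 CPM there. They were highest in B16F10-BrM (Col1a2, 1.56 ± 0.184 CPM) and in E0771-BrM (Pdgfrb, 2.14 ± 0.668 CPM). The part of other cells in the differences below was not tested, and in bulk RNA fewer cells of a kind and less RNA per cell cannot be told apart.

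Sirt5 was the sirtuin that set the melanoma line apart. In B16F10-BrM it had 31999, 30216 and 33158 counts in libraries A, B and C, against 123, 115 and 120 in 482N1 and 356, 279 and 349 in E0771-BrM. These are normalised levels of 3333, 3791 and 3863 CPM in B16F10-BrM, of 15.9, 13.8 and 15.2 CPM in 482N1 and of 45.2, 33.5 and 43.5 CPM in E0771-BrM. No library of one line reached into the range of another, and the order was B16F10-BrM, E0771-BrM, 482N1. The means were 3662 ± 287, 40.7 ± 6.33 and 15.0 ± 1.03 CPM in that order. The mean in B16F10-BrM was 245 times that in 482N1, a log2 fold change of 7.93 ± 0.11 (SE), and 89.9 times that in E0771-BrM. E0771-BrM stood 2.72 times above 482N1, with a log2 fold change of 1.44 ± 0.11. Between 0.352% and 0.406% of all counts of each B16F10-BrM library fell on this 1 gene.

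**Figure D1:**
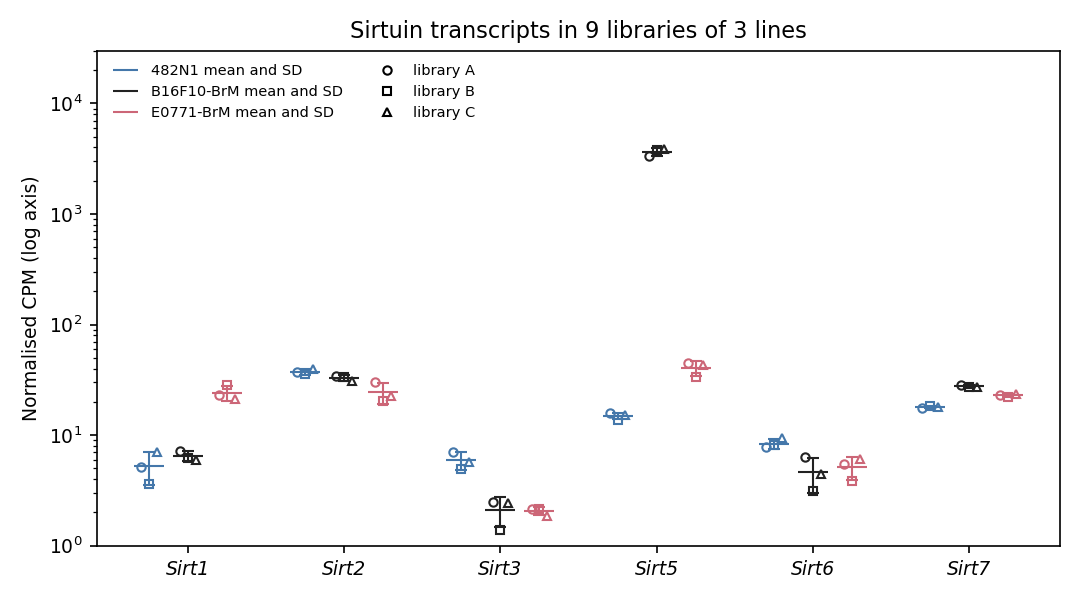
Normalised CPM (log axis) of the 6 measured sirtuins in each of the 9 libraries, with the mean and SD of each line (n = 3). Sirt5 lies at 3333 CPM or more in the 3 B16F10-BrM libraries and below 46 CPM in the other 6, while no other sirtuin exceeds 41 CPM in any library.

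The share of family reads taken by Sirt5 differed accordingly between lines. It made up 97.7% to 98.2% of the counts of the 6 sirtuins in B16F10-BrM libraries, 30.3% to 36.7% in E0771-BrM and 15.9% to 17.5% in 482N1. Longer genes draw more reads, so levels between genes were compared per kilobase of annotated exon. On that scale Sirt5 reached 601 ± 47.2 CPM per kb in B16F10-BrM, rank 81 of 10827 genes with a length and within the top 0.748%. It ranked 4427 in E0771-BrM with 6.68 ± 1.04 CPM per kb and 7307 in 482N1 with 2.46 ± 0.169 CPM per kb. Sirt2 led the family in 482N1 with 7.47 ± 0.455 CPM per kb, followed by Sirt7 with 3.51 ± 0.0729, Sirt6 with 3.01 ± 0.312 and then Sirt5, all per kb. Lengths count all annotated exons of a gene together, and this order depends on them. In CPM, Sirt6 (8.39 ± 0.869) lay below Sirt5 (15.0 ± 1.03) in 482N1. Sirt1 and Sirt3 were lowest there, with 0.992 ± 0.328 and 0.990 ± 0.183 CPM per kb, and did not differ beyond their spread. In E0771-BrM the per-length levels of Sirt2 (4.87 ± 1.04), Sirt1 (4.55 ± 0.711) and Sirt7 (4.44 ± 0.134 CPM per kb) lay under that of Sirt5. They differed from each other by less than the SD of Sirt2. Sirt3 was lowest in that line with 0.345 ± 0.0279 CPM per kb. Within B16F10-BrM the per-length level of Sirt5 was 91.9 times that of Sirt2, the next member, and 1700 times that of Sirt3, the other measured mitochondrial sirtuin.

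Libraries A and C of 482N1 and E0771-BrM also held more reads of melanocyte pigment genes than library B of the same line. Dct, an enzyme of melanin synthesis, had 142, 14 and 148 counts in libraries A, B and C of 482N1 and 353, 29 and 263 in those of E0771-BrM. Relative to its mean level in B16F10-BrM, that was 0.106%, 0.00979% and 0.109% in 482N1 and 0.260%, 0.0202% and 0.190% in E0771-BrM. Pmel, a protein of melanosome fibrils, and Tyrp1, another melanin enzyme, were at 0 counts in library B of 482N1 and at 0.0177% to 0.0222% of their B16F10-BrM level in library B of E0771-BrM. In libraries A and C they stood at 0.0835% to 0.224%. Sirt5 stood higher than these 3 genes on this scale in each of the 6 libraries, at 0.433%, 0.378% and 0.415% of its B16F10-BrM level in 482N1 and 1.23%, 0.914% and 1.19% in E0771-BrM. Its lowest value in both lines was in library B, where Dct, Pmel and Tyrp1 were lowest too. The other melanocyte markers in the table were Mitf, the regulator of the pigment genes, and Gpnmb, a melanosome glycoprotein. In 482N1 they were lowest in library B too, with Mitf at 0.263%, 0.0701% and 0.222% of its B16F10-BrM level and Gpnmb at 0.0802%, 0.0132% and 0.0835%, all below Sirt5. In E0771-BrM they stood above Sirt5, with Mitf at 3.75%, 3.40% and 3.23% and Gpnmb at 2.59%, 2.32% and 2.34%, and library B did not stand apart.

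**Figure D2:**
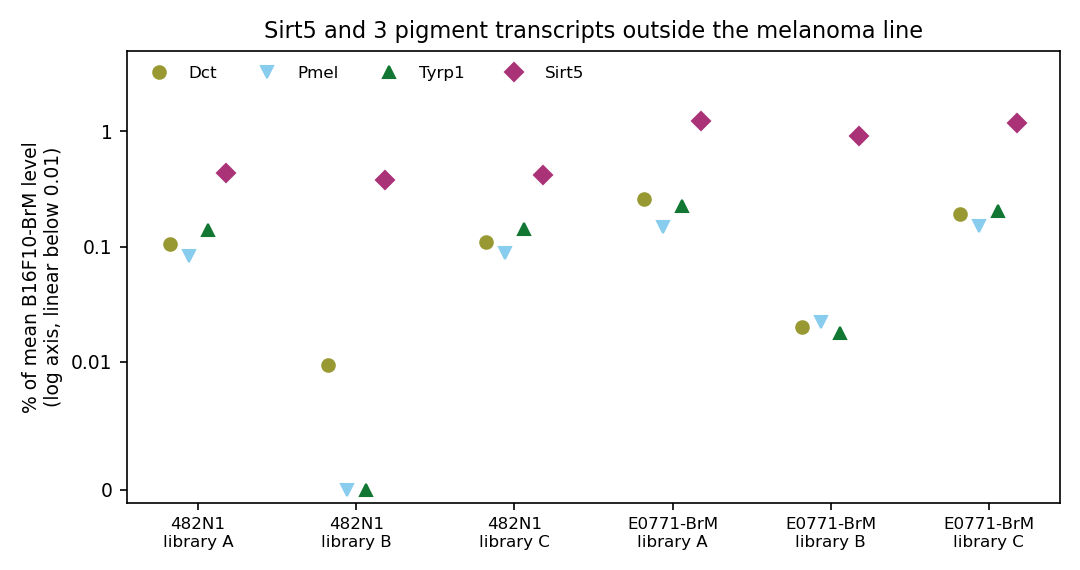
Level of Sirt5 and of the pigment genes Dct, Pmel and Tyrp1 in each library of 482N1 and E0771-BrM, as a percentage of the gene's mean level in B16F10-BrM (log axis, linear below 0.01%). Sirt5 lies between 0.378% and 1.23% in all 6 libraries, and the 3 pigment genes fall to 0.0222% or less in library B of both lines.

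Taking off, from each library, the Sirt5 level that would accompany its Dct share left 12, 13.5 and 11.2 CPM in 482N1 and 35.6, 32.7 and 36.5 CPM in E0771-BrM. The lines did not overlap on this scale either. The mean of 482N1 became 12.2 ± 1.15 CPM and that of E0771-BrM 35 ± 1.99 CPM. With these means, B16F10-BrM was 300 times above 482N1 and E0771-BrM 2.86 times above it. The subtraction takes Dct reads outside B16F10-BrM to come with Sirt5 reads in the proportion of that line, which was not tested. Its values also depend on the gene chosen. In libraries A and C of 482N1 the shares of Tyrp1 (0.139% and 0.143%) and Mitf (0.263% and 0.222%) were above those of Dct (0.106% and 0.109%). Those of Pmel and Gpnmb were below them. In library B alone, where Dct was at 0.0202% or less, Sirt5 had 115 counts in 482N1 and 279 in E0771-BrM.

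Sirt5 and Sirt1 are shown by the bases just before their earliest RefSeq start, in build GRCm38.p6, because theirs were the sirtuin promoter windows that held a letter match to the E-box of MITF, the regulator of melanocyte pigment genes, and Sirt5 is the member that stood apart in the melanoma line. Capitals mark CATGTG (or CACATG on the other strand) and CACGTG, which is its own reverse complement. The motifs do not overlap each other, and they were chosen after the levels were known. Sirt5 lies at chr13:43365285-43365388 (plus strand) and Sirt1 at chr10:63339036-63339285 (minus strand), both printed 5′ to 3′ along the gene. The Sirt5 stretch ends just before the first base of the RefSeq gene record, which lies 146 bases upstream of the start on which its promoter window is set; for Sirt1 these starts are the same.
Sirt5: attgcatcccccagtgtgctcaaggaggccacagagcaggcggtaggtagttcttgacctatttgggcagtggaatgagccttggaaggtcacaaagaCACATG
Sirt1: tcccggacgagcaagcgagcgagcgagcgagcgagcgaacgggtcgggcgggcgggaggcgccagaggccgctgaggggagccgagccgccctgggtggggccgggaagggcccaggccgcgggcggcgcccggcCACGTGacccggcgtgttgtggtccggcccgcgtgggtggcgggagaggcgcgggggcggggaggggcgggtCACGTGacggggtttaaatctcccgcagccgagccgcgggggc
The Sirt5 stretch of 104 bases held 1 CATGTG match and no CACGTG, and the Sirt1 stretch of 250 bases held 2 CACGTG matches and no CATGTG. Among 32851 RefSeq promoter windows of 300 bases, 14.2% held CATGTG and 7.15% held CACGTG on either strand. The printed stretches are shorter than these windows, and the full windows of Sirt5 and Sirt1 held the same numbers of matches. The windows of the other 5 names, with 7 entries, held neither. A match of letters is a description and not a binding site, and no binding was measured.

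The genes next to Sirt5 on either side changed little or in the other direction in the melanoma line, and genes further out varied. Of the 10 neighbours described here, 5 had the order of mean levels of Sirt5 (Tmem170b, Phactr1, Tbc1d7, Mcur1 and Dtnbp1). For Tmem170b, Tbc1d7 and Mcur1 the difference between E0771-BrM and B16F10-BrM was not called (edgeR adjusted p of 0.195, 0.256 and 0.727). In the fit over all 9 libraries, each of the 5 had a smaller log2 fold change than Sirt5 between B16F10-BrM and 482N1. That of Phactr1 ranged from 6.11 to 11.1 over the alternative fits given at the end, and that of Sirt5 from 7.88 to 8.05. In the order of a RefSeq gene list, the 5 measured genes on one side were Tmem170b, Hivep1, Phactr1, Tbc1d7 and Gfod1, and on the other Nol7, Ranbp9, Mcur1, Jarid2 and Dtnbp1. Gfod1, next to Sirt5, was at 16.4 ± 1.24 CPM in 482N1 and 9.08 ± 0.578 CPM in B16F10-BrM, and fell by 0.85 ± 0.15 on the log2 scale (edgeR quasi-likelihood test, adjusted p = 1.26e-06). Nol7, a nucleolar protein gene on the other side, was at 121 ± 6.70 and 140 ± 5.61 CPM, a log2 difference of 0.21 ± 0.08 (adjusted p = 0.0131 by edgeR, and 0.0725 without library A of 482N1). With a log2 rise of 3.41 ± 0.11, Dtnbp1 (dysbindin, a subunit of the BLOC-1 complex of melanosome and lysosome biogenesis) went from 14 ± 1.75 to 148 ± 12 CPM (edgeR adjusted p = 2.79e-31). Phactr1, a regulator of protein phosphatase 1 and actin, rose by 6.70 ± 0.29 and had 2, 0 and 5 counts in the 482N1 libraries against 241 to 319 in B16F10-BrM.

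Of the 10 neighbours 7 rose and 3 fell in B16F10-BrM against 482N1, with 38% of all tested genes called higher and 39.9% called lower. In E0771-BrM against 482N1, 8 rose and 1 fell, with 37.7% and 40.4% of all genes. Gfod1 rose there by 1.32 ± 0.13, to 41.0 ± 3.06 CPM, and Phactr1 by 5.75 ± 0.32. Mcur1, a regulator of the mitochondrial calcium uniporter, and Jarid2, a partner of Polycomb complex 2, rose in both comparisons, by 1.81 ± 0.13 and 1.30 ± 0.10 in B16F10-BrM and by 1.76 ± 0.13 and 1.64 ± 0.10 in E0771-BrM. Ranbp9, with −0.42 ± 0.18 and 0.47 ± 0.17, lost its call in the first comparison without library C of 482N1 or library B or C of B16F10-BrM (edgeR adjusted p of 0.0943 to 0.136). It lost its call in the second without library A of 482N1 (adjusted p = 0.0518) or of E0771-BrM (adjusted p = 0.125). Tmem170b, with 0.58 ± 0.28 in the second (adjusted p = 0.057), passed the test without library A of 482N1 (0.0488) or of E0771-BrM (edgeR adjusted p = 0.0352).

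**Figure D3:**
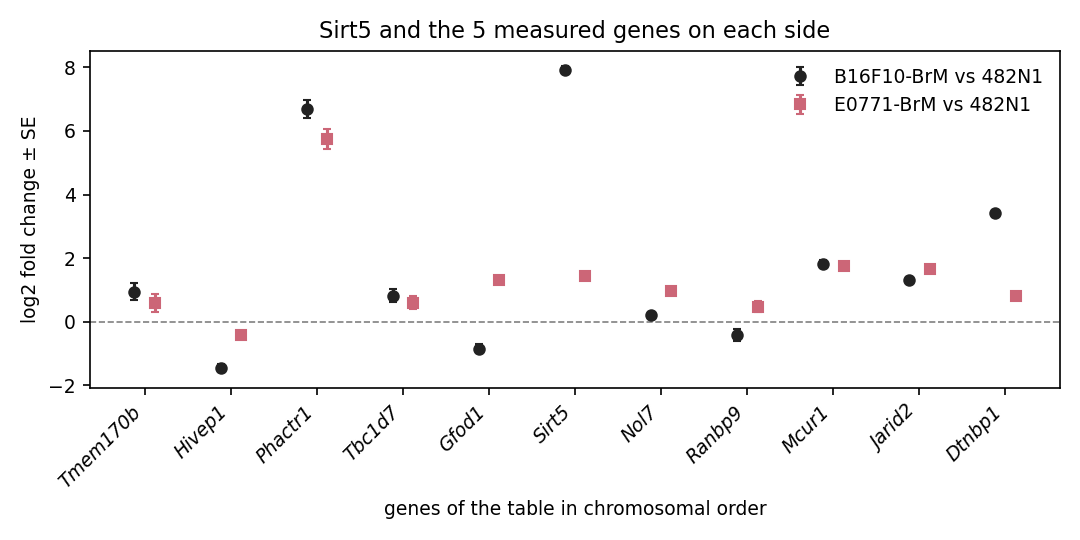
Log2 fold change ± SE of Sirt5 and the 5 measured genes on each side, in chromosomal order, for B16F10-BrM and for E0771-BrM against 482N1. The adjacent genes Gfod1 and Nol7 lie at −0.85 and 0.21 in B16F10-BrM, beside 7.93 for Sirt5.

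By the distance between log2 CPM profiles centred over the 9 libraries, the 8 genes most like Sirt5 were Nrcam, Ckb, Cryab, Mcam, Pdzrn3, Nckap5l, Gxylt2 and Kctd15. Nrcam, a neuronal cell adhesion molecule, was nearest at a distance of 1.17 log2 units, with 0.505 ± 0.233, 139 ± 13.0 and 2.11 ± 1.09 CPM in 482N1, the melanoma line and the breast line. Ckb, the brain-type creatine kinase, followed at 1.46 with 2.48 ± 0.977, 389 ± 30.3 and 3.56 ± 0.851 CPM, and Cryab, a small heat shock protein of the lens, at 1.98 with 1.97 ± 0.825, 184 ± 13.9 and 2.57 ± 0.563 CPM. Mcam, the melanoma cell adhesion molecule, was at a distance of 2.30 with 49.1 ± 11.5 CPM in B16F10-BrM and 2 counts over the 482N1 libraries. The first 3, Mcam and Gxylt2 share with Sirt5 the order B16F10-BrM, E0771-BrM, 482N1. For Ckb, Cryab and Gxylt2 the libraries of the lower lines overlap, and Gxylt2 had only 3 to 8 counts in E0771-BrM and 1 to 4 in 482N1. This set is a description and moves with its measure. A smaller prior count kept 5 of the 8, and ranking by Pearson correlation, which ignores the size of the change, kept 0 and began with Dbi and Ugp2.

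Sirt3, the main mitochondrial deacetylase, was highest in the lung line. It had 55, 41 and 45 counts in 482N1, 24, 11 and 21 in B16F10-BrM and 17, 18 and 15 in E0771-BrM, or 5.91 ± 1.09, 2.11 ± 0.632 and 2.06 ± 0.166 CPM. Every 482N1 library stood above every library of the other lines, which overlapped each other. Against 482N1, Sirt3 fell by 1.46 ± 0.29 on the log2 scale in B16F10-BrM (edgeR adjusted p = 1.3e-05) and by 1.51 ± 0.29 in E0771-BrM (adjusted p = 1.08e-05). The 2 lower lines differed by −0.05 ± 0.34 (adjusted p = 0.905, 95% interval −0.73 to 0.64), an interval that holds changes in either direction. Sirt3 shares 342 exon bases with Psmd13 and 418 with Ric8a on the opposite strand, 5.73% and 7.0% of its exon length. The strand setting of the counting is not given in the sources used here, so reads of those stretches may be split between the genes. Sirt5 and Sirt6 share no exon base with another annotated gene.

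Sirt1, a nuclear deacetylase of p53, FOXO factors and histones, was highest in the breast line. Its libraries A, B and C stood at 23.0, 28.6 and 21.3 CPM in E0771-BrM, 7.19, 6.27 and 5.94 CPM in B16F10-BrM and 5.16, 3.61 and 7.10 CPM in 482N1. The E0771-BrM libraries lay above all others, and those of the other lines overlapped. The mean was 24.3 ± 3.79 CPM in E0771-BrM, a log2 rise of 2.2 ± 0.19 over 482N1 (edgeR adjusted p = 1.31e-14) and of 1.90 ± 0.18 over B16F10-BrM (adjusted p = 3.73e-13). B16F10-BrM (6.47 ± 0.645 CPM) and 482N1 (5.29 ± 1.75 CPM) differed by 0.30 ± 0.22 with an adjusted p of 0.211 and a 95% interval of −0.14 to 0.74. This value rests on library C of 482N1, without which the difference was 0.57 with an adjusted p of 0.0327 (edgeR).

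Sirt6, a chromatin deacylase with roles in DNA repair and glucose metabolism, showed the pattern of Sirt3 with smaller steps. It was at 7.74, 8.06 and 9.38 CPM in 482N1, 6.35, 3.14 and 4.43 CPM in B16F10-BrM and 5.46, 3.84 and 6.11 CPM in E0771-BrM. All 482N1 libraries were above the rest, and the other lines overlapped. It fell by 0.83 ± 0.23 on the log2 scale in B16F10-BrM (edgeR adjusted p = 0.00132) and by 0.71 ± 0.23 in E0771-BrM (adjusted p = 0.00565) against 482N1. Without library B of E0771-BrM the latter was −0.54 with an adjusted p of 0.0524. The difference between E0771-BrM and B16F10-BrM was 0.12 ± 0.25 (edgeR adjusted p = 0.664, 95% interval −0.38 to 0.63). Counts of Sirt6 ran from 25 to 74 and those of Sirt3 from 11 to 55, which limits what can be resolved for both. Sirt1 was similarly limited in 482N1 (30 to 56 counts) and B16F10-BrM (50 to 69 counts).

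Sirt7, the nucleolar sirtuin tied to ribosomal gene transcription, moved the other way from Sirt6. Its levels were 17.7, 18.4 and 18.1 CPM in 482N1, 28.3, 27.1 and 27.4 CPM in B16F10-BrM and 23.2, 22.1 and 23.3 CPM in E0771-BrM, with no overlap between lines. It rose by 0.61 ± 0.12 on the log2 scale in B16F10-BrM (edgeR adjusted p = 1.86e-05) and by 0.34 ± 0.13 in E0771-BrM (adjusted p = 0.014) against 482N1. The step of −0.27 ± 0.12 from B16F10-BrM to E0771-BrM passed the test narrowly (adjusted p = 0.0382). That call was lost when any 1 library of either line was left out, with adjusted p of 0.0586 to 0.101, and in DESeq2 (adjusted p = 0.0555). The gene shares 124 exon bases with Mafg on the same strand.

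Sirt2, a tubulin and histone deacetylase of the cytosol, was lowest in the breast line. Its libraries stood at 37.3, 35.5 and 40.1 CPM in 482N1, 34.5, 33.6 and 30.6 CPM in B16F10-BrM and 30.5, 20.5 and 22.6 CPM in E0771-BrM. The lines did not overlap, although library A of E0771-BrM came close to library C of B16F10-BrM. Sirt2 fell in E0771-BrM by 0.62 ± 0.12 against 482N1 (edgeR adjusted p = 1.58e-05) and by 0.43 ± 0.12 against B16F10-BrM (adjusted p = 0.002). B16F10-BrM differed from 482N1 by −0.19 ± 0.12 (adjusted p = 0.138, 95% interval −0.43 to 0.05).

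**Figure D4:**
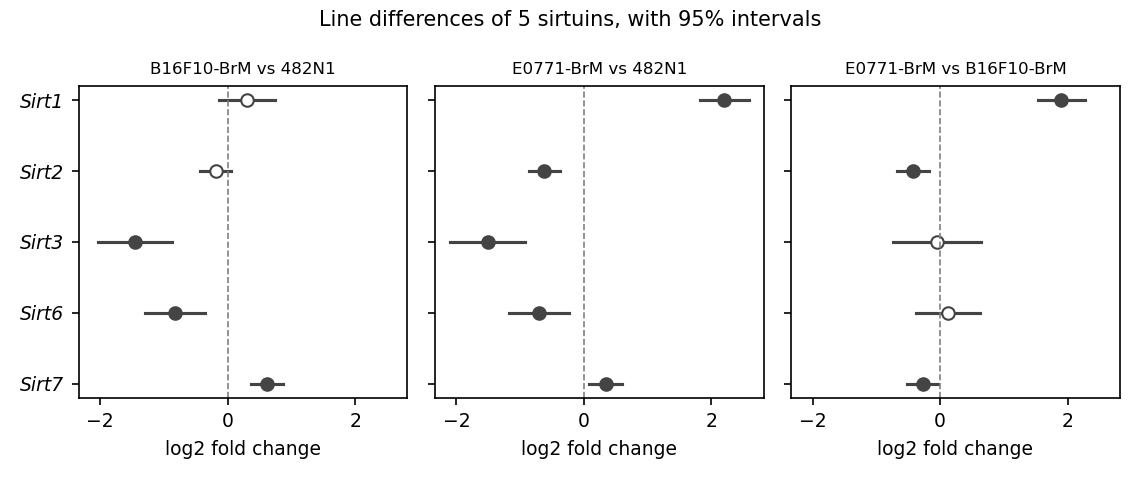
Log2 fold change with 95% interval of the 5 sirtuins other than Sirt5 in the 3 comparisons of lines. Filled points have an adjusted p below 0.05 (edgeR) and open points do not. Sirt1 has the largest value, 2.2 in E0771-BrM against 482N1.

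Apart from Sirt5, 3 of 5 sirtuins passed the test in B16F10-BrM against 482N1, where 77.8% of all 11037 tested genes did. All 5 passed in E0771-BrM against 482N1, beside 78.1% of all genes, and 3 of 5 in E0771-BrM against B16F10-BrM, beside 73.7%. These shares are near the background, so that a call alone says little about the family, and the sizes and directions above are what separates its members. The first pair of comparisons shares the 482N1 libraries. Sirt3 and Sirt6 were lower and Sirt7 higher than 482N1 in both other lines. Libraries of the 2 lines did not overlap for 4 of these 5 sirtuins in B16F10-BrM against 482N1 (78.7% of all genes), for 5 of 5 in E0771-BrM against 482N1 (78.5%) and for 3 of 5 in E0771-BrM against B16F10-BrM (75.5%). The median log2 fold change of all genes was −0.04, −0.04 and 0.02 in the 3 comparisons.

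Genes around the sirtuins were read from 8 lists, by their counts and medians. Of 19 listed genes that make or use succinyl-, malonyl- and glutaryl-CoA, the donors of the groups SIRT5 removes, 17 were measured. In B16F10-BrM against 482N1, 10 rose and 3 fell, with a median log2 fold change of 0.53. These 76.5% of the list compare with 77.8% of all genes called, 38% higher and 39.9% lower. Oxct1, which moves CoA from succinyl-CoA to ketone bodies, rose by 2.34 ± 0.07, from 191 ± 19.1 to 969 ± 26.4 CPM (edgeR adjusted p = 1.63e-31). Ogdh and Pccb, subunits of 2-oxoglutarate dehydrogenase and propionyl-CoA carboxylase, rose by 1.29 ± 0.09 and 1.26 ± 0.17. Pcca, the partner subunit of Pccb, fell by 2.01 ± 0.23 in E0771-BrM against B16F10-BrM. In E0771-BrM against 482N1, 8 rose and 6 fell with a median of 0.40, where 37.7% of all genes were called higher and 40.4% lower. Mlycd, the malonyl-CoA decarboxylase, fell by 1.65 ± 0.19 in that comparison, and Dld, the shared dihydrolipoamide dehydrogenase, rose by 1.52 ± 0.10.

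Reported SIRT5 substrates (13 of 17 measured) went both ways in B16F10-BrM, with 7 higher and 6 lower than 482N1 and a median of 0.66. Of all genes, 38% were called higher and 39.9% lower in that comparison. Sdhb, the iron-sulphur subunit of succinate dehydrogenase, rose by 2.37 ± 0.08 on the log2 scale from 176 ± 9.72 to 911 ± 58.4 CPM (edgeR adjusted p = 2.26e-31). Shmt2, the mitochondrial serine hydroxymethyltransferase, rose by 2.05 ± 0.09, from 28.9 ± 1.38 to 120 ± 1.13 CPM. Gapdh and Glud1, of glycolysis and glutamate oxidation, fell by 1.45 ± 0.15 and 1.27 ± 0.07. E0771-BrM had 5 higher and 5 lower with a median of 0.06, among them Sdhb with 1.01 ± 0.07 and Shmt2 with 2.26 ± 0.09. Of all genes, 37.7% were called higher and 40.4% lower than 482N1 in that line. Reported SIRT3 substrates (11 of 14) had 5 higher and 5 lower in B16F10-BrM and 2 higher and 5 lower in E0771-BrM, with medians of −0.13 and 0.02. Sod2, the mitochondrial superoxide dismutase, rose in both, by 1.01 ± 0.10 and 1.20 ± 0.10. Ppif, the cyclophilin of the permeability transition pore, rose in B16F10-BrM by 1.71 ± 0.17. Idh2, Glud1, Sdha and Pdha1 belong to both lists, so the lists are not independent.

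Genes listed for NAD+ synthesis and salvage (11 of 21 measured) were 4 higher and 5 lower in B16F10-BrM against 482N1, with a median of −0.15. In E0771-BrM 2 were higher and 6 lower, with a median of −0.48. Of all genes, 38% were called higher and 39.9% lower in the first comparison, and 37.7% and 40.4% in the second. Nadk, Nadk2, Nnt, Slc25a51 and Nnmt are on the list but are not NAD+ synthesis enzymes, so its counts and medians do not describe synthesis alone. Nadsyn1, the NAD+ synthetase, stood at 11.1 ± 0.434, 4.0 ± 1.03 and 0.706 ± 0.277 CPM in the lung, melanoma and breast lines. It fell by 1.48 ± 0.23 on the log2 scale in B16F10-BrM and fell by 3.95 ± 0.32 in E0771-BrM. Nadk2, the mitochondrial NAD+ kinase, fell by 1.67 ± 0.15 and 1.92 ± 0.15. Nnmt, which methylates nicotinamide, had 0 counts over the 482N1 libraries. Set against a group floor of 3 counts, it was at least 132-fold higher in the melanoma line and at least 75.1-fold higher in the breast line. Other NAD+ consumers (15 of 18 measured) were 4 higher and 7 lower in B16F10-BrM but 10 higher and 3 lower in E0771-BrM, with medians of −0.08 and 0.82. Parp12 and Parp14, interferon-inducible mono-ADP-ribosyltransferases, had their highest levels in E0771-BrM with 53.1 ± 4.42 and 44.9 ± 2.93 CPM. There they rose by 7.64 ± 0.28 and 4.18 ± 0.18 over 482N1. Parp12 lay near 0 in 482N1, with 0.246 ± 0.241 CPM, and its rise ranged from 6.72 to 8.54 over the alternative fits given at the end. Parp1, the main DNA-damage polymerase of the family, rose most in B16F10-BrM, by 1.58 ± 0.09 (53.3 ± 4.30 to 159 ± 11.1 CPM). Against B16F10-BrM, 11 of the 15 consumers rose in E0771-BrM and 2 fell, with a median of 1.31, beside 37.2% of all genes called higher and 36.5% called lower.

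**Figure D5:**
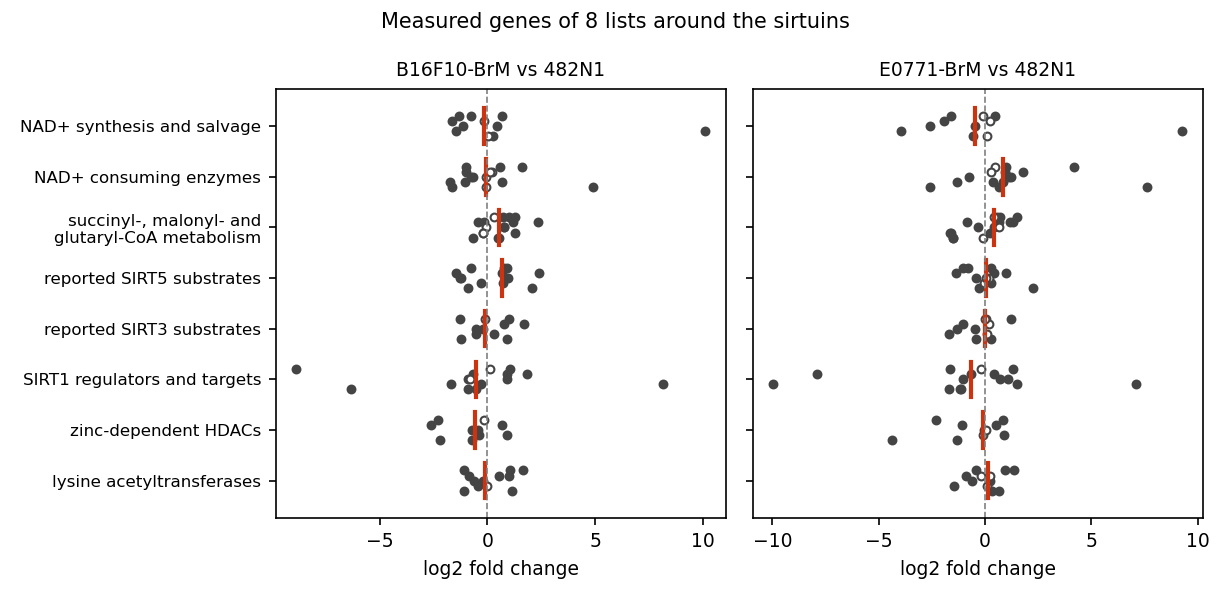
Log2 fold change of each measured gene of 8 lists around the sirtuins, for B16F10-BrM and for E0771-BrM against 482N1. Filled points have an adjusted p below 0.05 (edgeR), open points do not, and red bars are list medians, which lie at −0.08 and 0.82 for NAD+ consuming enzymes in the 2 panels.

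Of 17 regulators and targets of SIRT1, 15 were measured, with 5 higher and 8 lower in B16F10-BrM against 482N1 (median −0.55) and 6 higher and 8 lower in E0771-BrM (median −0.68). Of all genes, 38% were called higher and 39.9% lower in the first comparison, and 37.7% and 40.4% in the second. Several genes of this list lay near 0 in 1 line. Ppargc1a, the mitochondrial coactivator PGC-1α, had 3 counts over the E0771-BrM libraries against 33.1 ± 4.89 CPM in 482N1 and 118 ± 7.18 CPM in B16F10-BrM, where it rose by 1.83 ± 0.10. Its level in 482N1 was 268 times that in E0771-BrM, with a 95% counting interval of 91.5 to 1300. Foxo1, a transcription factor of the insulin pathway, had 1 count in E0771-BrM against 55.8 ± 4.94 CPM in 482N1, a ratio of 1350 with a counting interval of 242 to 53400. Trp53, the gene of p53, had 1 count in 482N1 and 15.9 ± 0.649 CPM in B16F10-BrM, a ratio of 381 (68.0 to 15100). Nr1h3, the liver X receptor alpha, had 0 counts in B16F10-BrM and was at least 61.5-fold lower there than in 482N1. Counting intervals and floors cover counting error only.

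The zinc-dependent histone deacetylases, which need no NAD+, were 2 higher and 7 lower of 10 measured in B16F10-BrM against 482N1, with a median of −0.56, beside 38% of all genes called higher and 39.9% lower. Hdac7 fell by 2.63 ± 0.09, from 156 ± 11.2 to 25.2 ± 0.698 CPM, Hdac6, a tubulin deacetylase like SIRT2, by 2.30 ± 0.14 and Hdac11 by 2.22 ± 0.17. In E0771-BrM 3 were higher and 4 lower, with a median of −0.07, and Hdac11 fell by 4.37 ± 0.22 to 1.61 ± 0.656 CPM. Lysine acetyltransferases, which add acetyl groups to lysines, had all 12 members measured. Of these, 5 were higher and 6 lower in B16F10-BrM and 5 higher and 4 lower in E0771-BrM, beside the same shares of all genes. Their medians were −0.12 and 0.16. Kat14 rose in both, by 1.67 ± 0.14 and 1.35 ± 0.15, and Kat5 (TIP60) fell by 1.09 ± 0.19 in B16F10-BrM and stood highest in E0771-BrM with 20.1 ± 2.36 CPM.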

How the data were processed

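Poly(A)-selected, stranded (TruSeq) RNA-seq libraries of 3 mouse lines, 3 each, gave a table of raw read counts per gene symbol that the authors deposited. Per the submitters' processing notes, FastQC, TopHat2 2.0.10, Bowtie 1.0.0, SAMtools 0.1.19, Cufflinks 2.2.1 and build GRCm39 were used. The counting tool, its strand setting, the annotation and the choice of genes are not given in the sources used here.

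The members and lists were chosen with earlier results of these data known. Genes were kept by filterByExpr (11037 of 11046), scaled by TMM and fitted over all 9 libraries with 1 coefficient per line in edgeR 4.0.16 (R 4.3.3, robust quasi-likelihood, limma 3.58.1). Tests were 2-sided, adjusted by Benjamini-Hochberg over all genes, with a threshold of 0.05. Total counts of 7332390 to 9293348 set the precision. Lengths came from GENCODE M21 exons (GRCm38, 10827 genes matched), gene order from a RefSeq list (10783 symbols matched) and promoters from RefSeq GRCm38.p6. Named genes were all sirtuins present, up to 4 called list members per list and comparison with non-overlapping libraries and the largest changes (of these some are printed), 5 neighbours on each side of Sirt5, and the 8 nearest profiles (log2 CPM, prior count 2) without predicted genes. Alternatives were DESeq2 1.42.0, other scaling, filters, a replicate block and left-out libraries. The script was tested on simulated data.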

Additional observations from a re-analysis of the deposited data

How the results depend on the processing

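Numbers of genes called, list medians and the log2 fold changes of sirtuins, Sirt5 neighbours and named list genes were recomputed under 19 alternatives. The nearest profiles were redone under fewer settings. Per-length ranks, promoter matches, marker sums, shares without overlap and counting intervals were not recomputed. Genes called numbered 7682 to 8600 in B16F10-BrM against 482N1, 7175 to 8631 in E0771-BrM against 482N1 and 7300 to 8191 in E0771-BrM against B16F10-BrM, and sirtuins called other than Sirt5 numbered 3 to 4, 4 to 5 and 2 to 3. The lowest gene counts came with library B alone of 482N1 and E0771-BrM, which leaves 1 library in each and assumes that it varies like the others. The log2 fold change of Sirt5 ranged from 7.88 to 8.05, 1.27 to 1.57 and −6.77 to −6.37. Directions turned for Sirt3 in E0771-BrM against B16F10-BrM, −0.26 to 0.097 on leaving out 1 library and 0.019 with library B alone, and for Sirt6, −0.081 to 0.43 and −0.29; neither was called. With library B alone Sirt7 lost its call against 482N1 in E0771-BrM (adjusted p = 0.295) and against B16F10-BrM (0.0939), Sirt1 gained one in B16F10-BrM (0.84, adjusted p = 0.017, edgeR), and the median of the SIRT1 list there moved from −0.55 to −0.22. The causes were not tested. Of the 91 called results of named list genes none lost its call. These genes were picked for the largest called changes with non-overlapping libraries in the same data, so that outcome was nearly fixed in advance. Sirtuins and neighbours of Sirt5, which were not picked that way, did lose some calls. Over all tested genes, deviations of same-lettered libraries correlated by −0.00992 to 0.0898. Such a value says little about a few genes, and Dct, Pmel and Tyrp1 were lowest in library B of both 482N1 and E0771-BrM. Whether libraries of a letter were handled together was not tested. A replicate block gave 8595, 8623 and 8162 genes and 3, 5 and 3 sirtuins called. Counts under 80 per library limit Sirt3 and Sirt6, and Sirt1 in 482N1 and B16F10-BrM. The Dct subtraction was chosen after seeing the data.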
